A study of Mus musculus with 4 samples.

Results

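Cd274 and Pdcd1lg2 encode PD-L1 and PD-L2, the ligands of the inhibitory receptor PD-1. Both genes were followed by name, as 2 of the 32285 genes counted, in blood cells of mice that carried an acute myeloid leukemia. The cells were assigned to classes by marker genes, each cell on its own, and the leukemia-like class was set aside. This left 6791 of 9645 cells of BM-Ctrl, 7480 of 11174 of BM-shPrmt9, 8102 of 8946 of Spleen-Ctrl and 6546 of 8065 of Spleen-shPrmt9.

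The leukemia, called MA9, was made by the MLL-AF9 fusion in mouse blood progenitors, which were transplanted into wild-type recipients. The MA9 cells carried a doxycycline (Dox)-inducible short hairpin against the arginine methyltransferase gene Prmt9 (shPrmt9) or a control hairpin (Ctrl). All mice drank Dox for 7 days, and the labels give strain C57BL/6J and an age of 6 to 8 weeks for all 4 groups. Bone marrow (BM) and spleen cells were profiled by 10x 3′ single-cell RNA-seq, with 1 library per group and, by the study's methods, 1 representative mouse behind each. The hairpin sits in the transplanted cells. The classes described here can hold host cells and descendants of the transplanted cells that no longer showed the MA9 markers.

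PD-1 (Pdcd1) sits mainly on activated T cells, where ligand binding recruits phosphatases that dampen signals from the T cell receptor. PD-L1 is made by many blood cell types and is known for its induction by interferons, which act through JAK kinases, STAT proteins and the transcription factor IRF1. PD-L2 is known from dendritic cells, macrophages and some B cells, and is induced by IL-4 through STAT6 as well as by interferons. PD-L1 also binds CD80 on the same cell, and PD-L2 binds RGMB.

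Both genes lie on chromosome 19 (GRCm38, plus strand), Cd274 (ENSMUSG00000016496) at chr19:29367455-29388095 and Pdcd1lg2 (ENSMUSG00000016498) at chr19:29410919-29471161, downstream of Jak2. An antisense gene, Gm36043, lies within Cd274, and the antisense gene A930007I19Rik overlaps the end of Pdcd1lg2. The promoter windows of RefSeq (GRCm38.p6; from 250 bases before to 50 after the start) were matched for both genes and searched on both strands. The letters searched were those of STAT dimers (TTCNNNGAA), of the wider STAT6-type spacing (TTCNNNNGAA), of an IRF site (AANNGAAA) and of 2 such sites in tandem (GAAANNGAAA), which includes a single site. The stretches below are shown because they hold the matches found in the windows, given on the plus strand with the matching letters in capitals.
Cd274, AANNGAAA on the minus strand, chr19:29367252-29367281: ccgaagcctagTTTCGTTTtttcttaaact
Pdcd1lg2, TTCNNNNGAA, chr19:29410827-29410856: catgctccagTTCCTCAGAAaccattctgg
Pdcd1lg2, AANNGAAA on the minus strand, chr19:29410873-29410902: cacccccgcttTTTCTTTTtaacaggaaaa

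The Cd274 match lay 175 to 168 bases before the start, inside the neighbouring gene Plgrkt, which is transcribed from the other strand. In Pdcd1lg2 the STAT6-type letters lay 82 to 73 bases and the IRF letters 35 to 28 bases before the start. AANNGAAA occurred in 23.9% of 32851 promoters and TTCNNNNGAA in 6.95%. TTCNNNGAA (8.30% of promoters) and GAAANNGAAA (3.44%) were not found in either window. A match of letters does not show that a factor binds there.

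The libraries held 8648 to 11315 barcodes, 84009744 to 188030429 unique molecular identifiers (UMIs, each a counted RNA molecule) and medians of 6589 to 10021.5 UMIs per barcode. Between any 2 libraries, 15 to 35 barcodes were shared, at most 0.405% of the smaller. Prmt9 was at 10.5 counts per 1000000 UMIs (CPM) in all cells of BM-Ctrl, 6.92 in BM-shPrmt9, 13.1 in Spleen-Ctrl and 7.05 in Spleen-shPrmt9. In MA9-like cells it was at 10.93 CPM in BM-Ctrl and 6.275 in BM-shPrmt9. In the other classes together it was at 8.954 CPM in BM-Ctrl, 7.273 in BM-shPrmt9, 13.03 in Spleen-Ctrl and 7.121 in Spleen-shPrmt9. Spleen-Ctrl and Spleen-shPrmt9 held 29 and 78 MA9-like cells. The lower Prmt9 level was thus not limited to MA9-like cells, and the part of the hairpin in it was not tested. In the cells other than MA9, 4 Y-linked genes summed to 0 and 1 UMIs in the marrow libraries and to 216 and 158 CPM in the spleen libraries, so the marrow and spleen of a group cannot be taken for 1 animal. Xist was at 21.1 CPM in BM-Ctrl and 245 CPM in BM-shPrmt9, and in BM-Ctrl 28.7% of T-like cells but at most 2.31% of any other class of 50 or more cells showed it. Animal, hairpin and library can therefore not be told apart in either tissue, nor can the Xist state in marrow, and every difference below compares 2 libraries. MA9-like cells showed Xist in 0.574% of cells in BM-Ctrl and 16.2% in BM-shPrmt9. The classes of BM-Ctrl other than T-like and B-like showed it in at most 0.363% of cells, close to its MA9-like cells. In the other classes of BM-shPrmt9 it was 36.9% to 92.2%. Whether a class came from host or transplanted cells was not tested.

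Each level is a class's summed UMIs as CPM of its total, with an exact Poisson 95% interval, and each ratio is shPrmt9 over Ctrl, with an exact conditional binomial 95% interval. Both intervals cover counting error only. With 1 library per group there is no replicate error and no test. Classes of fewer than 50 cells in a library got no ratio. The class names were rebuilt from markers and end in "-like". In the classes described the 10 leading genes held 2 to 8 of the class's own markers. The conventional dendritic cell-like class (1 of 10, with 5 to 25 cells per library) is not described for that reason.

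Over all gated cells other than MA9-like, Cd274 was 2.64-fold higher in BM-shPrmt9 than in BM-Ctrl (21.2 and 56.0 CPM; interval 2.46 to 2.85), where 2.77% of 13987 genes were at least 2-fold higher. In spleen it was 1.53-fold higher (80.0 and 122.7 CPM; 1.49 to 1.58), short of the 2-fold mark that 6.81% of genes passed. Pdcd1lg2 was below 1 in both tissues, with a ratio of 0.679 (5.36 and 3.64 CPM; 0.562 to 0.819) in marrow and 0.600 (9.08 and 5.44 CPM; 0.531 to 0.677) in spleen. The cell classes made up different parts of each library, and the median log2 ratio of all genes was -0.51 in marrow and -0.37 in spleen. With each class given equal weight, the Cd274 ratio in spleen turned to 0.919, and the Pdcd1lg2 ratios to 1.17 in marrow and 1.51 in spleen. The marrow Pdcd1lg2 ratio was 0.964 with TMM and 0.965 with DESeq2 factors, so no direction is read from it. The levels within classes are given next.

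**Figure D1:**
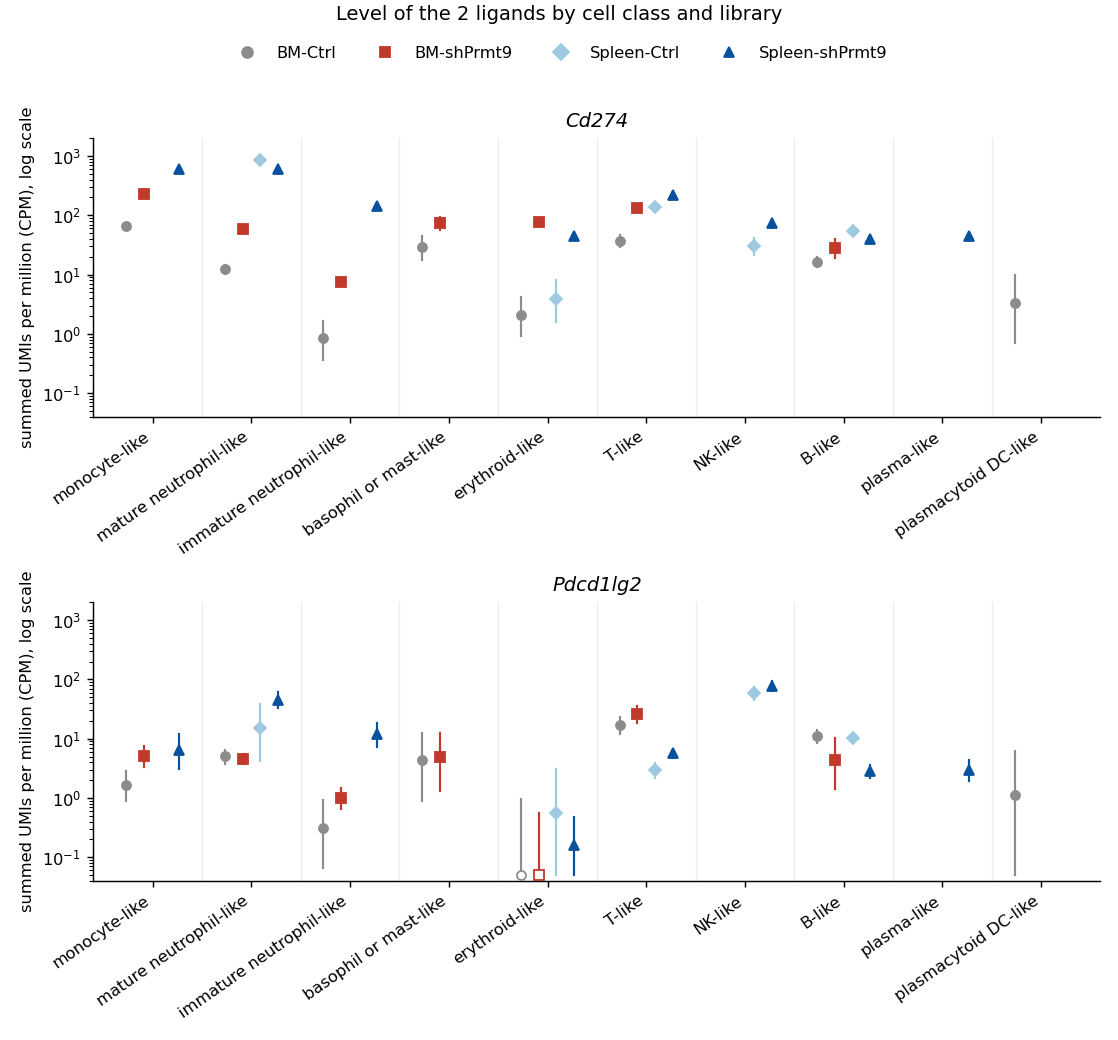
Level of Cd274 (top) and Pdcd1lg2 (bottom) as CPM on a log axis in 10 gated classes, with 1 point per library and exact Poisson 95% intervals; open symbols are counts of 0 and whiskers are cut at 0.05. Cd274 was highest in spleen neutrophil-like and monocyte-like cells (612 to 858 CPM), and Pdcd1lg2 in spleen NK-like cells (58.6 and 77.9 CPM), among classes of at least 50 cells.

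Monocyte-like cells, with Fn1 and F13a1 among their leading genes, had the highest Cd274 level of the marrow classes of at least 50 cells in both libraries. The level was 65.5 CPM (60.0 to 71.4; 517 UMIs in 551 cells) in BM-Ctrl, 227 CPM (214 to 241; 1119 UMIs in 319 cells) in BM-shPrmt9 and 612 CPM (574 to 652; 956 UMIs in 121 cells) in Spleen-shPrmt9. Spleen-Ctrl held 27 such cells. The marrow intervals were well apart, at a ratio of 3.47 (3.12 to 3.86), where 7.15% of genes were at least 2-fold higher. Thinned to 2000 UMIs per cell, 15.1% and 43.3% of the marrow monocyte-like cells had a Cd274 UMI, against 38.8% and 81.2% unthinned at median depths of 11919 and 13501 UMIs. In BM-Ctrl this class held 56.6% of the Cd274 UMIs in 8.11% of the cells.

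Mature neutrophil-like cells, which carried Cd274 at a low level in marrow, carried it at a high level in spleen. In BM-Ctrl the level was 12.2 CPM (10.3 to 14.4; 139 UMIs in 3003 cells) and in BM-shPrmt9 58.8 CPM (55.6 to 62.1; 1263 UMIs in 3660 cells). In Spleen-Ctrl it was 858 CPM (749.8 to 977.5; 226 UMIs in 64 cells) and in Spleen-shPrmt9 613 CPM (565 to 663; 622 UMIs in 113 cells). All 4 intervals were apart, with both spleen libraries far above both marrow libraries. The marrow ratio was 4.82 (4.04 to 5.78), where 5.19% of genes were at least 2-fold higher. The spleen ratio was 0.714 (0.612 to 0.835), with 6.98% of genes at least 2-fold higher, but there the median log2 ratio of all genes was -0.39, and the ratio was 1.06 with TMM factors and 1.16 with DESeq2 size factors. No direction in spleen is therefore read from it.

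The marrow neutrophil-like cells of the libraries sat in different clusters of a whole-series clustering. Cluster 2 held 91.9% of them in BM-Ctrl, and cluster 11 held 81.9% in BM-shPrmt9 and 75% in Spleen-Ctrl, while cluster 17 held 98.2% in Spleen-shPrmt9. Within cluster 11 the marrow levels were 44.8 and 61.1 CPM, a ratio of 1.36 (0.938 to 2.06) whose interval held 1. Within cluster 2 they were 5.87 and 44.7 CPM, a ratio of 7.63 (4.76 to 12), with 14 of the 30 UMIs of BM-shPrmt9 in 1 cell. The size of the marrow difference thus depended on which neutrophil-like cells were set side by side.

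Immature neutrophil-like cells, led by granule genes, had some of the lowest Cd274 levels. They stood at 0.842 CPM (8 UMIs in 952 cells) in BM-Ctrl and 7.39 CPM (177 UMIs in 1967 cells) in BM-shPrmt9, a ratio of 8.78 (4.36 to 20.6), where 4.24% of genes were at least 2-fold higher. At the level that other lineages' genes reached in this class, free RNA would give 39.4% and 31.4% of these counts. In Spleen-shPrmt9 the level was 142 CPM in 118 cells, of whose 238 UMIs 1 cell held 41. Basophil- or mast-like cells of marrow stood at 28.7 CPM (20 UMIs in 81 cells) and 73.7 CPM (61 UMIs in 74 cells), a ratio of 2.57 (1.53 to 4.50), where 4.35% of genes were at least 2-fold higher. Thinned shares were 0.213% and 1.62% in marrow immature neutrophil-like cells and 7.69% and 19.2% in basophil- or mast-like cells.

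Erythroid-like cells, whose leading genes include Alas2 and Slc4a1, held almost no Cd274 in the Ctrl libraries and a clear level in both shPrmt9 libraries. In marrow the level was 2.12 CPM (0.913 to 4.17; 8 UMIs in 631 cells) in BM-Ctrl and 78.6 CPM (72.0 to 85.7; 518 UMIs in 1107 cells) in BM-shPrmt9. In spleen it was 3.94 CPM (1.59 to 8.12; 7 UMIs in 157 cells, 4 of them in 1 cell) in Spleen-Ctrl and 45.6 CPM (42.5 to 48.8; 835 UMIs in 1529 cells) in Spleen-shPrmt9. The Ctrl and shPrmt9 intervals were far apart in both tissues. The ratios were 37.2 (18.7 to 86.6) in marrow, where 21.7% of genes were at least 2-fold higher, and 11.6 (5.58 to 28.8) in spleen, where 7.29% were. The median log2 ratio of all genes was 0.47 in marrow and -0.84 in spleen. Free RNA would give 94.5% of the Spleen-Ctrl count and 21.1% of the BM-Ctrl count, so the spleen ratio rests on a control level close to background. Without the cell with most Cd274 UMIs in each library the ratios were 57.1 in marrow and 25.5 in spleen. After thinning, 1 of 514 cells (0.195%) of BM-Ctrl, 88 of 809 (10.9%) of BM-shPrmt9, 0 of 143 of Spleen-Ctrl and 111 of 1377 (8.06%) of Spleen-shPrmt9 had a Cd274 UMI. The 0 of Spleen-Ctrl allows a share of up to 2.10%, taking 3 cells as the limit of a count of 0. Unthinned, the shares were 0.792%, 17.2%, 2.55% and 15.2% at median depths of 5672, 4764, 10672 and 12615 UMIs.

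Globins take up most UMIs of late erythroid cells, so the class was split by the share of UMIs from haemoglobin genes. In Spleen-shPrmt9 the Cd274 level was 855 CPM in the 125 cells with globins under 25% of UMIs, of which 1 cell gave 38 of 193 UMIs. It was 166 CPM in the 379 cells between 25% and 75%, and 8.65 CPM in the 1025 cells at 75% or more. In BM-shPrmt9 the same bins gave 115.5, 94.0 and 37.6 CPM in 294, 584 and 229 cells. The cells with the least globin were shallow, with medians of 1200 and 1335 UMIs in Spleen-shPrmt9 and BM-shPrmt9. No bin of a Ctrl library held more than 4 UMIs. With haemoglobin, mitochondrial and immunoglobulin genes left out of the totals, the class stood at 6.68 and 197 CPM in marrow and at 22.1 and 339 CPM in spleen.

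The 190 erythroid-like cells of BM-shPrmt9 with a Cd274 UMI were set beside the 917 without one, and the 233 of Spleen-shPrmt9 beside 1296. Their median depths were 5700 and 4555 UMIs in marrow and 10381 and 13506.5 in spleen. All CPM of this comparison leave haemoglobin, mitochondrial and immunoglobulin genes out of the totals. They are therefore higher than, and not on the scale of, the class levels given elsewhere. Of the interferon response readouts measured, 6 of 10 in marrow and 10 of 11 in spleen were at least 2-fold higher in the cells with Cd274, against 10.1% and 10.8% of all genes. Depth and globin content differed between these cells as well, and their part in the counts was not tested. Irf1, the factor best known to act on the Cd274 promoter, was at 72.1 and 307 CPM in marrow, 4.26-fold higher, and at 76.9 and 604 CPM in spleen, 7.85-fold higher. Ifit3, an interferon-induced antiviral gene, was 14.7- and 12.9-fold higher, and Socs1, an inhibitor of JAK kinases, 10.5- and 4.11-fold. The 13 erythroid markers measured summed to 25431 CPM without and 18156 CPM with Cd274 in marrow, and to 34079 and 21567 CPM in spleen. Single markers ranged from Rhd (0.440) to Car1 (1.82) in marrow and from Car1 (0.0485) to Rhag (1.70) in spleen, with Klf1, a transcription factor of red cell precursors, at 0.540 and 0.804. The summed markers of other lineages did not move in 1 way with Cd274. The mature neutrophil markers summed to 1623 CPM without and 1102 CPM with Cd274 in marrow, the monocyte markers to 47.7 and 85.6 CPM, and the conventional dendritic cell markers to 8.28 and 36.7 CPM. In spleen these sums were 34.2 and 18.6, 60.9 and 49.1, and 78.5 and 47.4 CPM. The part of mixed droplets in these values was not tested. Other classes of the shPrmt9 libraries were split by Cd274 in the same way. There the readouts at 2-fold or more ran from 0 of 11 in spleen B-like to 7 of 11 in marrow immature neutrophil-like cells. No share of all genes was computed for these classes, so the pattern cannot be called particular to erythroid-like cells.

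**Figure D2:**
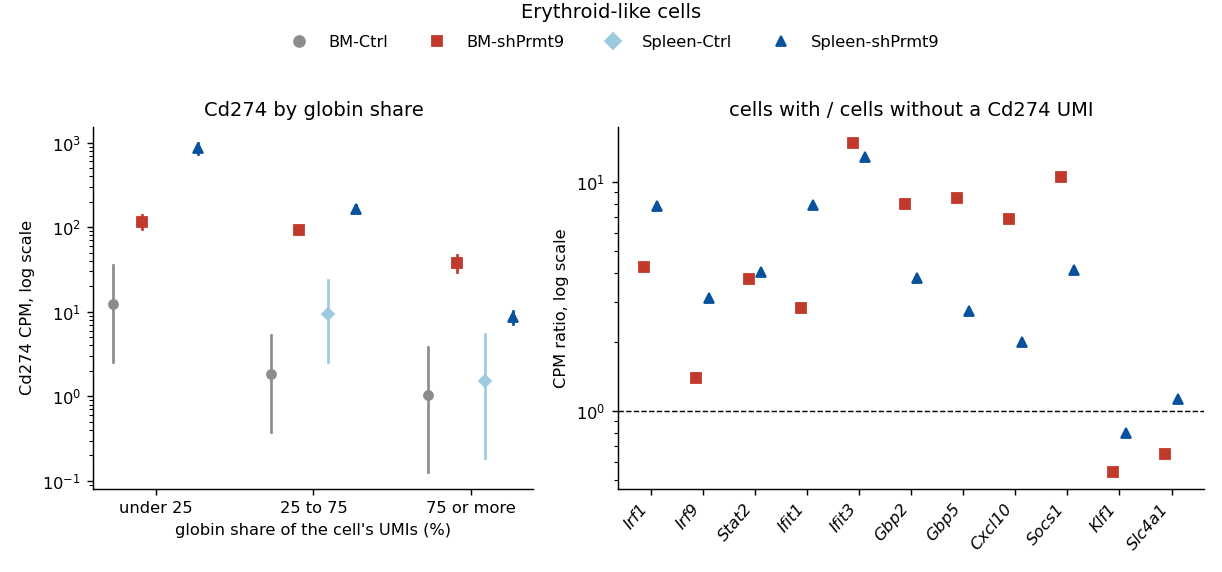
Left, Cd274 CPM of erythroid-like cells by share of UMIs from haemoglobin genes, for bins of at least 40 cells, with exact Poisson 95% intervals. Right, ratio of CPM (haemoglobin, mitochondrial and immunoglobulin genes left out of totals) in cells with over cells without a Cd274 UMI in the shPrmt9 libraries, where Irf1 stood at 4.26 and 7.85 and Klf1 at 0.540 and 0.804.

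T-like cells carried Cd274 in all 4 libraries. The level was 37.4 CPM (29.5 to 46.7; 77 UMIs in 293 cells) in BM-Ctrl, 131 CPM (113 to 149.7; 206 UMIs in 192 cells) in BM-shPrmt9, 136 CPM (130.3 to 141; 2405 UMIs in 1999 cells) in Spleen-Ctrl and 223.5 CPM (218 to 229; 6134 UMIs in 2885 cells) in Spleen-shPrmt9. BM-Ctrl was the low library, BM-shPrmt9 and Spleen-Ctrl overlapped, and Spleen-shPrmt9 was the highest. The ratio was 3.50 (2.68 to 4.60) in marrow, where 4.51% of genes were at least 2-fold higher. In spleen it was 1.65 (1.57 to 1.73), below the 2-fold mark that 4.94% of genes passed. After thinning, 4.91%, 23.8%, 23.5% and 34.9% of these cells had a Cd274 UMI in the same order of libraries, against 18.4%, 46.9%, 57.2% and 70.6% unthinned. These cells held 58.3% of the Cd274 UMIs of Spleen-shPrmt9 in 44.1% of the cells.

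Within spleen T-like cells the difference was found in each subset. Cells with Cd4 and no Cd8 UMI stood at 156 and 269.6 CPM, a ratio of 1.72 (1.56 to 1.91). Cells with Cd8 and no Cd4 UMI stood at 117 and 170.4 CPM, a ratio of 1.46 (1.36 to 1.56). Cells with neither stood at 165 and 298 CPM, a ratio of 1.81 (1.64 to 2.00). The 3 ratios lay within a narrow range, and the difference between them was not tested. In marrow, the T-like cells with at most 1 NK marker stood at 27.1 and 194 CPM, a ratio of 7.17 (4.81 to 11), and those with 2 or more at 49.2 and 76.3 CPM, a ratio of 1.55 (1.05 to 2.31).

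The T-like cells of the libraries also differed in cluster and in Xist. Cluster 1 held 78.8% of them in BM-Ctrl, 46.9% in BM-shPrmt9 and 49.8% in Spleen-Ctrl, and cluster 28 held 54.0% in Spleen-shPrmt9. Within cluster 1 the marrow Cd274 ratio was 1.88 (1.30 to 2.72), and within the small cluster 18 the spleen ratio was 1.19 (0.880 to 1.61). Marrow T-like cells with an Xist UMI gave 2.05 (1.39 to 3.08), and those without one 7.49 (5.11 to 11.1). The latter rests on 45 cells of BM-shPrmt9, under the 50 asked for a class ratio. The marrow ratio thus stayed above 1 in each of these divisions and moved between 1.55 and 7.49.

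NK-like cells of spleen had Cd274 at 30.2 CPM (21.1 to 41.8; 36 UMIs in 81 cells) in Spleen-Ctrl and 72.8 CPM (60.2 to 87.4; 116 UMIs in 161 cells) in Spleen-shPrmt9. The intervals were apart, at a ratio of 2.42 (1.65 to 3.62), where 10.1% of genes were at least 2-fold higher. After thinning, 6.17% and 15.5% of the cells had a Cd274 UMI, against 29.6% and 37.3% unthinned.

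B-like cells had a lower Cd274 level in the shPrmt9 library of spleen and a higher one in that of marrow. The level was 54.2 CPM (52.1 to 56.3; 2625 UMIs in 5720 cells) in Spleen-Ctrl and 39.9 CPM (37.5 to 42.4; 1007 UMIs in 1313 cells) in Spleen-shPrmt9, a ratio of 0.737 (0.684 to 0.792), short of the 2-fold marks. In spleen B-like cells 4.08% of genes were at least 2-fold higher and 12.7% at least 2-fold lower. In marrow the levels were 16.4 CPM (102 UMIs in 1126 cells) and 27.99 CPM (32 UMIs in 103 cells), a ratio of 1.71 (1.11 to 2.57), where 4.36% of genes were at least 2-fold higher and 7.27% at least 2-fold lower. After thinning, 3.06% and 2.97% of marrow B-like cells and 10.6% and 9.85% of spleen B-like cells had a Cd274 UMI. Expected over all draws, the shares were 3.04% and 4.62% in marrow and 10.3% and 9.35% in spleen. No order is read from these shares. Unthinned, the shares were 7.19%, 20.4%, 28.4% and 39.8%, at median depths of 4754.5, 8811, 6398 and 15341 UMIs.

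Spleen B-like cells of both libraries sat in different clusters, with 74.7% of Spleen-Ctrl in cluster 10 and 76.9% of Spleen-shPrmt9 in cluster 27. Within cluster 27 the direction was the opposite, at 19.5 and 36.4 CPM and a ratio of 1.87 (1.38 to 2.58). Within cluster 14 the ratio was 0.875 (0.704 to 1.09), and within clusters 5 and 10 it was 0.687 (0.487 to 0.942). Cells with 2 or more marginal zone markers gave 0.756 (0.658 to 0.868) and the others 0.735 (0.673 to 0.802). The lower spleen level therefore held in both marker-defined subsets, but not in each cluster.

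Across classes, Cd274 was at least 2-fold higher in 8 of 12 class comparisons, 6 of 7 in marrow and 2 of 5 in spleen. The interval lay above 1 in all 7 marrow comparisons and in 3 of the 5 spleen comparisons, and below 1 in the spleen B-like and neutrophil-like cells. In the order of levels within Spleen-Ctrl, neutrophil-like, T-like, B-like, NK-like and erythroid-like cells followed each other with no overlap between neighbours. In Spleen-shPrmt9 the neutrophil-like and monocyte-like intervals overlapped at the top. At the bottom the plasma-like interval (44.7 CPM in 266 cells; 40.2 to 49.4) overlapped those of erythroid-like and of B-like cells. The erythroid-like (42.52 to 48.76) and B-like (37.47 to 42.44) intervals lay just apart. Plasmacytoid dendritic cell-like cells of BM-Ctrl, 90 cells, held 3 Cd274 UMIs.

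**Figure D3:**
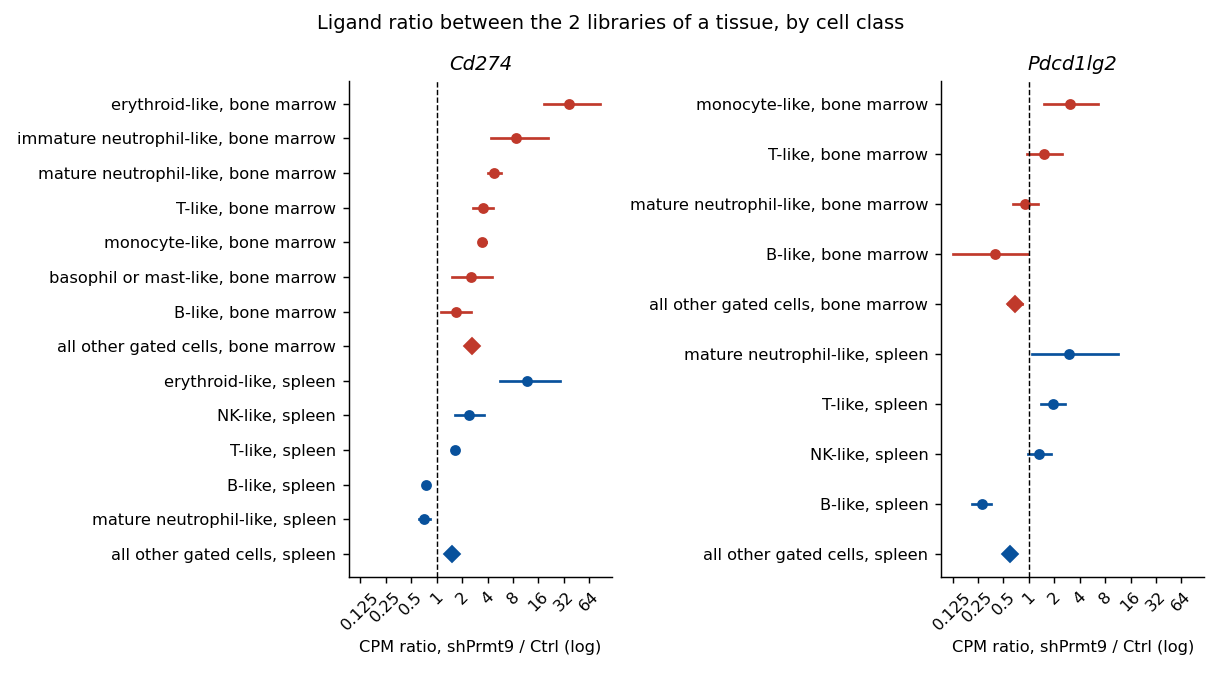
Ratio of CPM, shPrmt9 over Ctrl, of both genes in each class and tissue that allows one, on a log axis with exact 95% intervals for counting error; the dashed line marks a ratio of 1 and diamonds are all gated cells other than MA9-like. Cd274 lay right of the line in 10 of 12 class comparisons.

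Pdcd1lg2 had another pattern over the same cells, with spleen NK-like cells in front among classes of at least 50 cells. The few conventional dendritic cell-like cells are not part of this order. The level in NK-like cells was 58.6 CPM (45.7 to 74.1; 70 UMIs in 81 cells) in Spleen-Ctrl and 77.9 CPM (64.8 to 92.8; 124 UMIs in 161 cells) in Spleen-shPrmt9. The 42 and 15 NK-like cells of the marrow libraries, too few for a ratio, held 46 and 22 UMIs. The spleen intervals overlapped, at a ratio of 1.33 (0.983 to 1.81) whose interval held 1. NK-like cells made up 2.46% of the cells of Spleen-shPrmt9 and held 26.6% of its Pdcd1lg2 UMIs, and 0.619% of the cells of BM-Ctrl with 19.9%.

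In T-like cells Pdcd1lg2 was higher in marrow than in spleen. It stood at 17.0 CPM (35 UMIs) in BM-Ctrl, 26.0 CPM (41 UMIs) in BM-shPrmt9, 2.93 CPM (52 UMIs) in Spleen-Ctrl and 5.65 CPM (155 UMIs) in Spleen-shPrmt9. The marrow intervals overlapped, at a ratio of 1.53 (0.951 to 2.48), and the spleen ratio was 1.93 (1.40 to 2.69). In marrow the T-like cells with 2 or more NK markers stood at 31.4 and 39.9 CPM and the others at 4.52 and 9.65 CPM, so the higher marrow levels were those of T-like cells with NK markers. In spleen the cells with Cd8 and no Cd4 UMI stood at 1.79 and 6.70 CPM, a ratio of 3.74 (2.27 to 6.49), and those with Cd4 and no Cd8 UMI at 6.04 and 3.76 CPM, a ratio of 0.622 (0.324 to 1.21). Over the T-like cells of cluster 1 the marrow ratio was 2.10 (1.265 to 3.48), an interval above 1. Within spleen cluster 18 the ratio was 0.891 (0.463 to 1.77).

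B-like cells had a lower Pdcd1lg2 level in both shPrmt9 libraries. In spleen the level was 10.1 CPM (9.26 to 11.1; 491 UMIs) and 2.81 CPM (2.20 to 3.55; 71 UMIs), a ratio of 0.278 (0.213 to 0.357). In marrow it was 10.9 CPM (8.47 to 13.8; 68 UMIs) and 4.37 CPM (1.42 to 10.2; 5 UMIs), a ratio of 0.401 (0.126 to 0.983). Both ratios were at least 2-fold lower, which 12.7% of genes were in spleen and 7.27% in marrow. In marrow, the B-like cells with fewer than 2 precursor and fewer than 2 marginal zone markers gave 0.524 (0.139 to 1.41), whose interval held 1, and the cluster with the largest share was cluster 10 in BM-Ctrl (42.5%) and cluster 7 in BM-shPrmt9 (39.8%). The spleen ratio was 0.302 (0.192 to 0.459) in cells with 2 or more marginal zone markers and 0.262 (0.187 to 0.359) in the others. Within clusters it was 0.357 (0.197 to 0.686) in cluster 27 and 0.879 (0.397 to 1.99) in cluster 14. B-like cells held 76.6% of the Pdcd1lg2 UMIs of Spleen-Ctrl in 70.6% of the cells. In Spleen-shPrmt9 they held 15.2% of the UMIs in 20.1% of the cells, so these shares also follow the number of B-like cells.

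In myeloid classes Pdcd1lg2 counts were small. Mature neutrophil-like cells stood at 5.01 and 4.56 CPM in marrow (57 and 98 UMIs; ratio 0.911, 0.651 to 1.29) and at 15.2 and 45.3 CPM in spleen (4 and 46 UMIs; 2.98, 1.09 to 11.4). Monocyte-like cells stood at 1.65 and 5.07 CPM in marrow (13 and 25 UMIs), a ratio of 3.08 (1.52 to 6.56). These were the 2 of 8 Pdcd1lg2 comparisons at 2-fold or more, in classes where 6.98% and 7.15% of genes were. Basophil- or mast-like cells held 3 and 4 UMIs and immature neutrophil-like cells of marrow 3 and 24. Erythroid-like cells held 0 Pdcd1lg2 UMIs in both marrow libraries, 1 in Spleen-Ctrl and 3 in Spleen-shPrmt9, in the class in which Cd274 differed most.

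**Figure D4:**
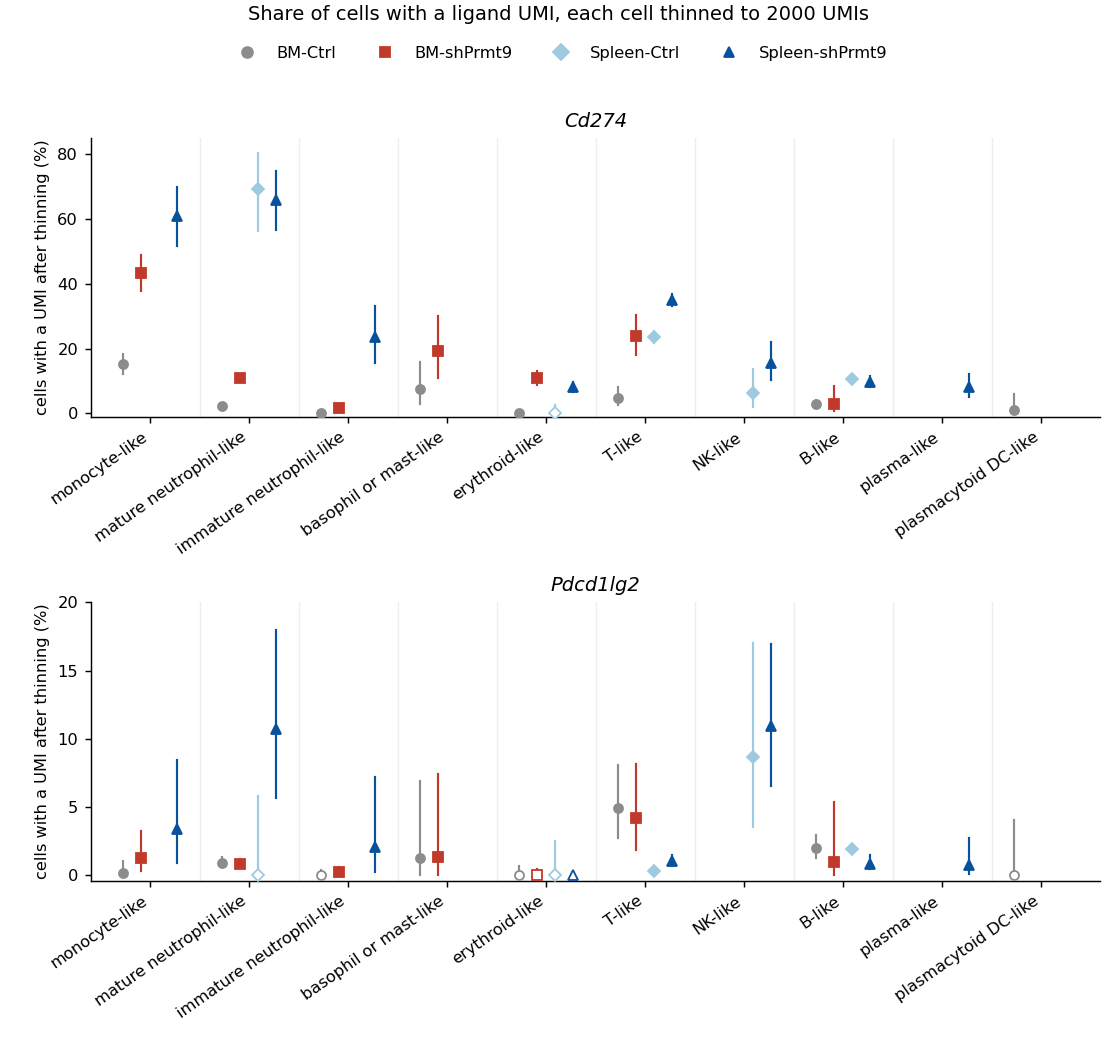
Percent of cells with a Cd274 (top) or Pdcd1lg2 (bottom) UMI after each cell was thinned to 2000 UMIs, by class and library, with exact Clopper-Pearson 95% intervals. Cd274 reached 69.4% and 66.1% in spleen neutrophil-like cells, and Pdcd1lg2 was at 0 in erythroid-like cells of all 4 libraries.

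Shares of cells after thinning are given with the erythroid-like class as the low reference. There, Pdcd1lg2 was found in 0 of 514, 809, 143 and 1377 cells, which by the same limit of 3 cells allows shares of up to 0.584%, 0.371%, 2.10% and 0.218%, with 117, 298, 14 and 152 cells too shallow to count. Pdcd1lg2 was found in 8.64% and 10.97% of spleen NK-like cells, in 4.91%, 4.23%, 0.301% and 1.01% of T-like cells and in 1.98%, 0.990%, 1.93% and 0.853% of B-like cells. Expected over all draws, the marrow T-like shares were 2.97% in BM-Ctrl and 4.13% in BM-shPrmt9. Their order thus changed with the draw, and none is read from them. The unthinned shares were 48.2% and 37.3% in spleen NK-like cells, at median depths of 12399 and 8522 UMIs. For Cd274 the low references were the erythroid-like cells of Spleen-Ctrl (0 of 143) and of BM-Ctrl (0.195%) and the immature neutrophil-like cells of BM-Ctrl (0.213%). The mature neutrophil-like shares were 2.24%, 11.1%, 69.4% and 66.1%, against 3.36%, 21.8%, 82.8% and 89.4% unthinned at medians of 3436, 5476, 3172 and 9629 UMIs, with 327, 67, 2 and 1 cells too shallow. Of 27338 thinned cells in classes of at least 50 cells, 61 had a UMI of both genes, 3383 of Cd274 alone and 249 of Pdcd1lg2 alone.

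The receptor Pdcd1 stood at 57.7 and 71.0 CPM in marrow T-like cells, a ratio of 1.23 (0.942 to 1.61), and at 15.5 and 11.04 CPM in spleen T-like cells, a ratio of 0.714 (0.605 to 0.844). It was below 2-fold in both. Cd80, the partner of PD-L1 on the same cell, was 3.79-fold higher in spleen B-like cells (3.08 and 11.7 CPM) and lower in marrow neutrophil-like cells (32.6 and 13.1 CPM; 0.403). Of the PD-1 signalling genes, Ptpn6, which encodes the phosphatase SHP-1, was at 0.437 in spleen T-like cells, and the other 4 of the list did not pass 2-fold there. None of the 5 passed it in marrow T-like cells. Among other B7 family ligands, Icosl, the ligand of the costimulator ICOS, was lower in B-like cells of both tissues, at 0.291 in spleen (47.9 and 13.95 CPM) and 0.210 in marrow. Genes for the stability and traffic of PD-L1 protein, such as Cmtm6, which protects it from degradation, passed 2-fold upward in at most 1 gene per class. In spleen erythroid-like cells 5 of 9 (Cmtm6, Cop1, Gsk3b, Hip1r and Stt3a) were at least 2-fold lower, but so were 41.5% of all genes there, so nothing is read from it.

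The 12 genes from the interferon receptors to IRF1 were next set beside Cd274. Irf1 passed 2-fold only in erythroid-like cells of marrow (7.40 and 49.2 CPM; 6.65). It was at 1.98 in mature neutrophil-like, 1.95 in immature neutrophil-like, 1.68 in monocyte-like, 1.55 in T-like, 1.35 in B-like and 1.33 in basophil- or mast-like cells. Of the whole list 5 of 11 measured genes were at least 2-fold higher in marrow erythroid-like cells, where 21.7% of all genes were, among them the interferon signalling genes Stat2 (6.29), Irf9 (3.48) and Irf2 (2.21). In the other 6 marrow classes it was 1 or 2 of 12, and 1 of 12 is close to the 4.24% to 7.15% of all genes there. Ifngr1, a chain of the interferon gamma receptor, was lower in marrow B-like (0.470) and monocyte-like cells (0.475). It was 1 of 12 genes at least 2-fold lower in each, where 7.27% and 8.39% of all genes were.

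In spleen 4 of 11 measured genes of the list were at least 2-fold higher in NK-like cells, where 10.1% of all genes were. It was 3 of 12 in erythroid-like cells, where 7.29% were, and none in T-like, B-like and neutrophil-like cells. Irf1 was at 1.59 in NK-like, 1.47 in erythroid-like, 0.963 in T-like, 0.509 (382 and 195 CPM) in B-like and 0.535 (1006 and 538 CPM) in neutrophil-like cells of spleen. The B-like and neutrophil-like cells, where the Cd274 ratio was under 1, were also those with the lowest Irf1 ratios. This is a description over 5 classes of the same library pair, and under other scalings the neutrophil-like ratio of Cd274 changed direction. In spleen B-like cells 2 of the 12 genes, Irf2 (0.497) and Ifngr1 (0.467), were at least 2-fold lower, near the 12.7% of all genes there. In spleen neutrophil-like cells it was also 2 of 12, against 19.3% of all genes, so nothing is read from these counts. Socs1, a feedback inhibitor that interferon gamma induces, was at 0.368 (336 and 124 CPM) in spleen B-like cells.

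The readouts of the interferon response passed 2-fold in many genes of every class, including those where Cd274 did not. The share of all genes at 2-fold or more in these comparisons was 4.08% to 10.1%, apart from 21.7% in marrow erythroid-like cells. In marrow 11 of 11 measured readouts were at least 2-fold higher in monocyte-like and in both neutrophil-like classes, 10 of 10 in erythroid-like, 9 of 11 in T-like, 7 of 10 in B-like and 6 of 7 in basophil- or mast-like cells. In spleen it was 7 of 9 in NK-like, 7 of 11 in erythroid-like, 7 of 12 in T-like, 7 of 11 in B-like and 5 of 11 in neutrophil-like cells. Isg15, a ubiquitin-like antiviral protein, was 12.6-fold higher in spleen B-like and 2.06-fold higher in spleen neutrophil-like cells. Gbp5, a guanylate-binding protein best known from interferon gamma, was at 0.162 (831 and 135 CPM) and the chemokine gene Cxcl10 at 0.213 (1412 and 301 CPM) in spleen neutrophil-like cells. In marrow neutrophil-like cells Gbp5 was 31.3-fold and Gbp2 13.8-fold higher. In marrow T-like cells Cxcl10 stood at 7.76 and 1689 CPM.

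**Figure D5:**
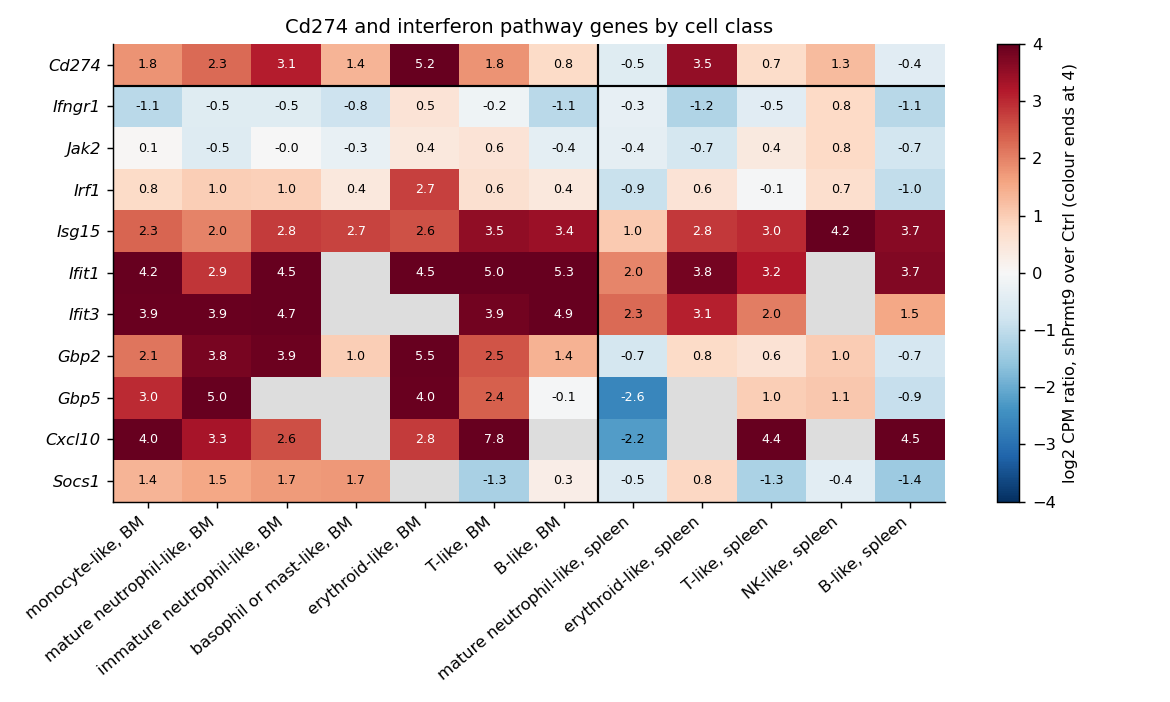
Log2 ratio of CPM, shPrmt9 over Ctrl, of Cd274 and 10 interferon pathway and response genes in 12 class comparisons; grey marks genes under 20 UMIs in all or under 4 UMIs in a library. In spleen B-like cells Cd274 (ratio 0.737) and Irf1 (0.509) were lower while Isg15 (12.6) was higher.

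Among a list of other regulators of the ligands, Bhlhe40, a transcription factor of activated lymphocytes, was higher in T-like cells of marrow (53.9 and 281 CPM; 5.22) and of spleen (21.4 and 116 CPM; 5.39) and in spleen NK-like cells (2.15). Hif1a, which mediates responses to low oxygen, was higher in spleen T-like (2.05) and NK-like cells (2.52). Il4ra, the receptor that leads to STAT6, was at 0.418 in spleen B-like cells. There 2 of 13 measured genes of this list were at least 2-fold lower, as were 12.7% of all genes. Pdcd1lg2 was lower in B-like cells of both tissues, but none of the 12 genes of this list measured in marrow B-like cells was at least 2-fold lower. A link between Il4ra and Pdcd1lg2 was not tested. Of the genes on either side of the pair on chromosome 19, few passed 2-fold. Insl6 did in marrow monocyte-like (2.63) and neutrophil-like (4.56) and spleen NK-like cells (2.87), Ric1 in marrow monocyte-like (2.10) and Plgrkt in marrow erythroid-like cells (3.05).

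The genes most like each member were ranked by Pearson's r of log2(CPM + 1) over 28 units of class and library, among 9460 genes. For Cd274 these were Gm36043 (0.874), which lies antisense within Cd274, then Gbp2 (0.874), Parp14 (0.838), Irgm2 (0.837) and Gbp5 (0.834). For Pdcd1lg2 they were Chsy1 (0.829), Bhlhe40 (0.805), Dusp5 (0.801), Tnfaip3 (0.779) and Slc2a1 (0.777). By Spearman's rho, 3 of the 5 for Cd274 and 1 of the 5 for Pdcd1lg2 stayed among the first 5. The units share 4 libraries and their depths, so r describes these libraries alone. In all cells Gm36043 had 42 UMIs in BM-Ctrl and 209 in BM-shPrmt9, and 542 and 905 in the Ctrl and shPrmt9 spleen.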

How the data were processed

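The authors deposited UMI counts per gene and cell for 4 libraries, made with Cell Ranger (version 6.1.1 in the submitters' processing notes, 6.0.2 in the matrix headers) on mm10. Cells with under 200 genes or over 20% mitochondrial UMIs were left out, and so were the 520 to 999 cells per library with the highest Scrublet scores. A cell joined a class when it showed at least 3 of its markers and scored 1.2 times the next lineage. The authors' own cell labels were not used. The members and lists were chosen with earlier results of these data known, and the scoring rule and its thresholds were set after the data were seen. Of the list genes past 2-fold in the classes described a part was named, with Pdcd1 in T-like cells always and 5 pattern neighbours per member, and values under 2-fold, such as those of Irf1, were added after they were seen. Fold shares cover genes with at least 20 UMIs over both libraries, and free RNA was estimated from other lineages' abundant genes. No test was run. On counts simulated as Poisson draws, 95.5% of T-like spleen intervals held the true fold, over the 12472 genes with a ratio. The interval assumes such draws, so this checks its computation and says nothing of the spread between cells or libraries. Tools were Python 3.11.15, scanpy 1.11.5, scipy 1.17.1, edgeR 4.0.16 (TMM factors) and DESeq2 1.42.0 (size factors). Some genes of the lists are counted but not reported by name here.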

Additional observations from a re-analysis of the deposited data

Results flagged for a closer look

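Cd274 in B-like cells was higher in the shPrmt9 library of marrow (ratio 1.71) and lower in that of spleen (0.737), so the same contrast went opposite ways in the tissues. The same held for mature neutrophil-like cells, at 4.82 in marrow and 0.714 in spleen. Both differences between tissues were not tested, since each group is 1 library and the marrow and spleen of a group cannot be taken for 1 animal, and the spleen neutrophil-like direction changed with the scale. For marrow B-like cells the intervals held 1 both with and without an Xist UMI, and thinned shares were 3.06% and 2.97%. The spleen B-like ratio was 1.87 within cluster 27, so its direction was not that of every cluster.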

How the results depend on the processing

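Of the class ratios recomputed under other settings, 186 of 212 stayed within their counting interval, 22 moved and 4 reversed, and of the pooled ratios 24 of 44 stayed, 17 moved and 3 reversed. No paired analysis was possible because each group holds 1 library, and none could be left out. For Cd274 in spleen B-like cells the ratio was 0.8002 with doublets kept, 0.897 as a mean of per-cell CPM, 0.826 with TMM and 0.804 with DESeq2 factors. Within clusters, chosen after the data were seen, it was 0.875 in cluster 14 and 1.87 in cluster 27, and that of Pdcd1lg2 was 0.879 and 0.357. For T-like cells the marrow Cd274 ratio was 2.05 in cells with Xist and 1.88 in cluster 1. The spleen ratio was 1.77 with TMM, 1.82 with DESeq2 and 1.19 in cluster 18. Pdcd1lg2 in spleen T-like cells gave 2.88 with cluster-named classes, 2.70 per cell and 0.891 in cluster 18. Cd274 in spleen erythroid-like cells gave 5.10 with doublets kept, 38.3 per cell and 200.8 with free RNA subtracted, where few control UMIs remained. Without the cell with most UMIs in each library the marrow erythroid-like ratio was 57.1. Mature neutrophil-like cells gave 5.80 with DESeq2 factors, 7.63 in cluster 2 and 1.36 in cluster 11 of marrow, and 0.541 with cluster-named classes, 1.06 with TMM and 1.16 with DESeq2 in spleen. Marrow monocyte-like cells gave 2.50 with cluster-named classes. Over all gated cells other than MA9-like, marrow Cd274 gave 3.76 per cell, 3.76 with TMM, 3.76 with DESeq2 and 3.71 with equal class weights. Marrow Pdcd1lg2 gave 0.964, 0.965 and 1.17 with the last 3. Spleen Cd274 gave 2.04 per cell, 1.97 with TMM, 1.90 with DESeq2, 1.81 without haemoglobin, mitochondrial and immunoglobulin genes, 1.60 with free RNA subtracted, 1.75 when cells needed 500 genes and no more than 10% mitochondrial UMIs, and 0.919 with equal weights. Spleen Pdcd1lg2 gave 0.719, 0.769, 0.743 and 0.706 under the first 4 of these, 0.690 with the stricter cell filter and 1.51 with equal weights. Where no cause is given, it was not tested. Over genes with at least 1 UMI, 8.81% to 34.5% passed 2-fold, above the shares printed with each class. After thinning to 1000 UMIs, as an expected share or with cluster-named classes, 125 of 158 shares stayed within their interval. Counts of Pdcd1lg2 were low, with 5 UMIs or fewer in several classes.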
